A study of Homo sapiens with 18 samples.

Results

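The AP-1 and small MAF factors are 10 transcription factor genes, chosen by symbol from the 26485 genes listed: the FOS family (FOS, FOSB, FOSL1, FOSL2), the JUN family (JUN, JUNB, JUND) and the small MAF family (MAFF, MAFG, MAFK). They were followed in 18 RNA-seq libraries of PANC-1, a human pancreatic ductal adenocarcinoma cell line, in a study of protein kinase R (PKR, gene EIF2AK2), a kinase activated by double-stranded RNA, and of what its loss or inhibition does to such cells. In the siRNA experiment, cells received 1 of 3 transfected siRNAs, the control or either of those against PKR (PKR siRNA 1, PKR siRNA 2). In the inhibitor experiment they received the solvent DMSO or the PKR inhibitor C16 at 400 nM or 800 nM. RNA was taken after 72 h, and each of the 6 groups had 3 libraries. All cells were of 1 line, and the labels give no further allele or agent. The labels place the siRNA libraries in run 1 and the C16 libraries in run 2, without saying what a run is. The siRNA and C16 libraries were also normalized in separate tables. An effect of the run and of the type of treatment therefore cannot be told apart, and levels were compared only within a table. Values are normalized read counts, given for the 3 libraries of a group in the order of replicates 1 to 3, and each siRNA or dose of one table shares its control libraries with the other.

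AP-1 is a dimer of basic leucine zipper proteins, usually a FOS protein with a JUN protein or JUN proteins with each other, that binds the TPA response element (TRE) and the related cAMP response element (CRE). FOS, FOSB and JUN are switched on within minutes of growth factor or stress signals, whereas FOSL1 (FRA-1) and FOSL2 (FRA-2) follow more slowly and FOSL1 is a known product of sustained ERK signalling in carcinoma cells. The small MAF proteins have no activation domain of their own. They pair with NRF or BACH proteins at antioxidant response elements (ARE), activating or repressing with the partner they meet.

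The libraries held 1512940 to 1873906 reads on genes in the siRNA experiment and 894145 to 1474308 in the C16 experiment. EIF2AK2 lay at 93.5 to 103 normalized counts in the control siRNA libraries, at 9.65 to 13.6 after PKR siRNA 1 and at 7.96 to 9.40 after PKR siRNA 2 (log2 fold changes -3.04 and -3.35, limma adjusted p = 4.69e-18 and 2.58e-20). In the C16 libraries it ranged from 39.2 to 54.1 and passed no threshold at either dose. The epithelial keratin KRT8 was at 1246 or more in all 18 libraries, KRT18 at 977 or more and KRT19 at 519 or more. The other epithelial markers listed were low: KRT7 ranged from 0.761 to 20.5, EPCAM from 9.40 to 120 and CDH1 from 9.07 to 61.7. Of the mesenchymal markers, VIM was at 1887 or more and CDH2 at 57.3 or more. Of 7 markers of other cell types, 4 were listed at 0 in all libraries (PTPRC, COL1A2, ALB and INS), PECAM1 and PRSS1 reached at most 0.965, and COL1A1 ranged from 21.8 to 161. COL1A1 lay at 82.1 to 109 in control siRNA libraries and at 21.8 to 28.9 after PKR siRNA 1, and at 130 to 161 with DMSO and 58.2 to 92.8 at 800 nM C16, while COL1A2, the other chain of type I collagen, stayed at 0 throughout. Of the 9 tested genes in the whole marker list, epithelial and mesenchymal ones included, 0 rose and 6 fell with PKR siRNA 1 (limma adjusted p under 0.05 and fold change over 1.5). The shares were 0% and 66.7%, against 8.53% and 12.6% of all genes. With PKR siRNA 2, 4 rose and 2 fell (44.4% and 22.2% against 10.8% and 12.8%). Of the 8 tested in the C16 table, 0 rose and 2 fell at 400 nM (0% and 25% against 7.08% and 5.45% of all genes). At 800 nM, 1 rose and 4 fell (12.5% and 50% against 11.6% and 14.1%).

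The sequence before the start of a gene is where AP-1 genes are known to respond to AP-1 itself, so promoter windows of the members were read from RefSeq (GRCh38.p14), each running from 250 bases before to 50 bases after the start. Of the 10 members, 8 matched an entry, all but FOSL1 and MAFK. Each window was searched on both strands for the TRE (TGANTCA), the CRE (TGACGTCA), the CRE variant known from the JUN promoter (TGACATCA) and the ARE core (TGACNNNGC). The ARE core can overlap the others, because it opens with the same 4 letters as the CRE. The 4 windows below are those that held a match, and capitals mark the TRE, CRE or JUN-type CRE.
JUN, chr1:58783998-58784297, minus strand: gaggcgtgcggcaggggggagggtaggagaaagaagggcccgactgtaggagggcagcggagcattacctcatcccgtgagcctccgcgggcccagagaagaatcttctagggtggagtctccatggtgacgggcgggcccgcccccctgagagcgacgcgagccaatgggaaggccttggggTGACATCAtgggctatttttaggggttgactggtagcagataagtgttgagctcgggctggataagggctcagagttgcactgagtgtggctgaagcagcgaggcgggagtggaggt
FOSL2, chr2:28392608-28392907, plus strand: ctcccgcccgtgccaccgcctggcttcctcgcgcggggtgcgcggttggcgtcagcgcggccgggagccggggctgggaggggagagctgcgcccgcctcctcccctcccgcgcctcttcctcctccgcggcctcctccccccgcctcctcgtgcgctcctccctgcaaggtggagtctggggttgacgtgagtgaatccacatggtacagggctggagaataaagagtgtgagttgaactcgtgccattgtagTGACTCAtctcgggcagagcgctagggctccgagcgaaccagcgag
JUND, chr19:18281573-18281872, minus strand: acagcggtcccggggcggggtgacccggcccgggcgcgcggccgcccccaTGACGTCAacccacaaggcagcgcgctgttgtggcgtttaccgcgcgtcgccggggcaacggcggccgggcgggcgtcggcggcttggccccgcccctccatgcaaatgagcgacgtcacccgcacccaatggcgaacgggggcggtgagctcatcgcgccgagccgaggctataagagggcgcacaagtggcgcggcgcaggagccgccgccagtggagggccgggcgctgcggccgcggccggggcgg
MAFF, chr22:38201744-38202043, plus strand: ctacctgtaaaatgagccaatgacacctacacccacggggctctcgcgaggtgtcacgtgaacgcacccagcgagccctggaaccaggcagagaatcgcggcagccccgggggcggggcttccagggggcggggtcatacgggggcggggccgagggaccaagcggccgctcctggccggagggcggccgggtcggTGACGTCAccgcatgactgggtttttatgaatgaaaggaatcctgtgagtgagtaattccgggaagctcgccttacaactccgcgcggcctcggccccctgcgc

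Positions are those of a match's first base, counted from the RefSeq start on which each window is built. The gene starts in the deposited tables are different ones, lying 66 bases upstream of the RefSeq start for JUN, 34 for JUND and 62 for MAFF, and 54 bases downstream of it for FOSL2. The JUN window held the JUN-type CRE at position -67, which is position -1 from the start in the tables. The FOSL2 window held a TRE at position 5, which is -50 from the start in the tables. JUND held a CRE at position -200 and ARE cores at -230 and -90 (-166, -196 and -56 from the start in the tables). MAFF held a CRE at -54 and an ARE core at -122, which are 9 and -60 from the start in the tables. The FOSL2 TRE and the MAFF CRE thus change sides of the start with the annotation, and the MAFF ARE core does not. Among 35116 promoter windows of this length, 7.71% held a TRE, 1.85% a CRE, 2.61% a JUN-type CRE and 13.3% an ARE core. The windows of FOS, FOSB, JUNB and MAFG and a second start of MAFF held none of these letters. A match describes the sequence only and does not show that a factor binds there.

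FOSL1 was the most highly expressed member per kilobase of exon in all 6 groups. With control siRNA it stood at 316 ± 9.35 normalized counts per kb (SD, n = 3), followed by MAFK at 113 ± 4.83, JUN at 89.3 ± 4.44, JUND at 58.8 ± 6.71 and MAFG at 47.1 ± 4.71, with no overlap between neighbours in this order. JUNB at 24.9 ± 5.11 and FOSL2 at 21.0 ± 2.12 overlapped. MAFF stood at 11.0 ± 1.84 per kb, FOSB at 1.72 ± 0.722 and FOS at 0.166 ± 0.287. With DMSO the order began with FOSL1 at 66.6 ± 8.50 per kb, then MAFK at 39.5 ± 4.27 and JUN at 34.2 ± 3.83, which overlapped, then MAFG at 25.4 ± 2.89 and JUND at 25.2 ± 1.08, which overlapped too. JUNB at 17.9 ± 4.68, FOSL2 at 6.45 ± 0.531 and MAFF at 2.73 ± 0.905 per kb followed with no overlap between neighbours. FOS at 0.444 ± 0.441 and FOSB at 0.254 ± 0.252 were lowest.

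**Figure D1:**
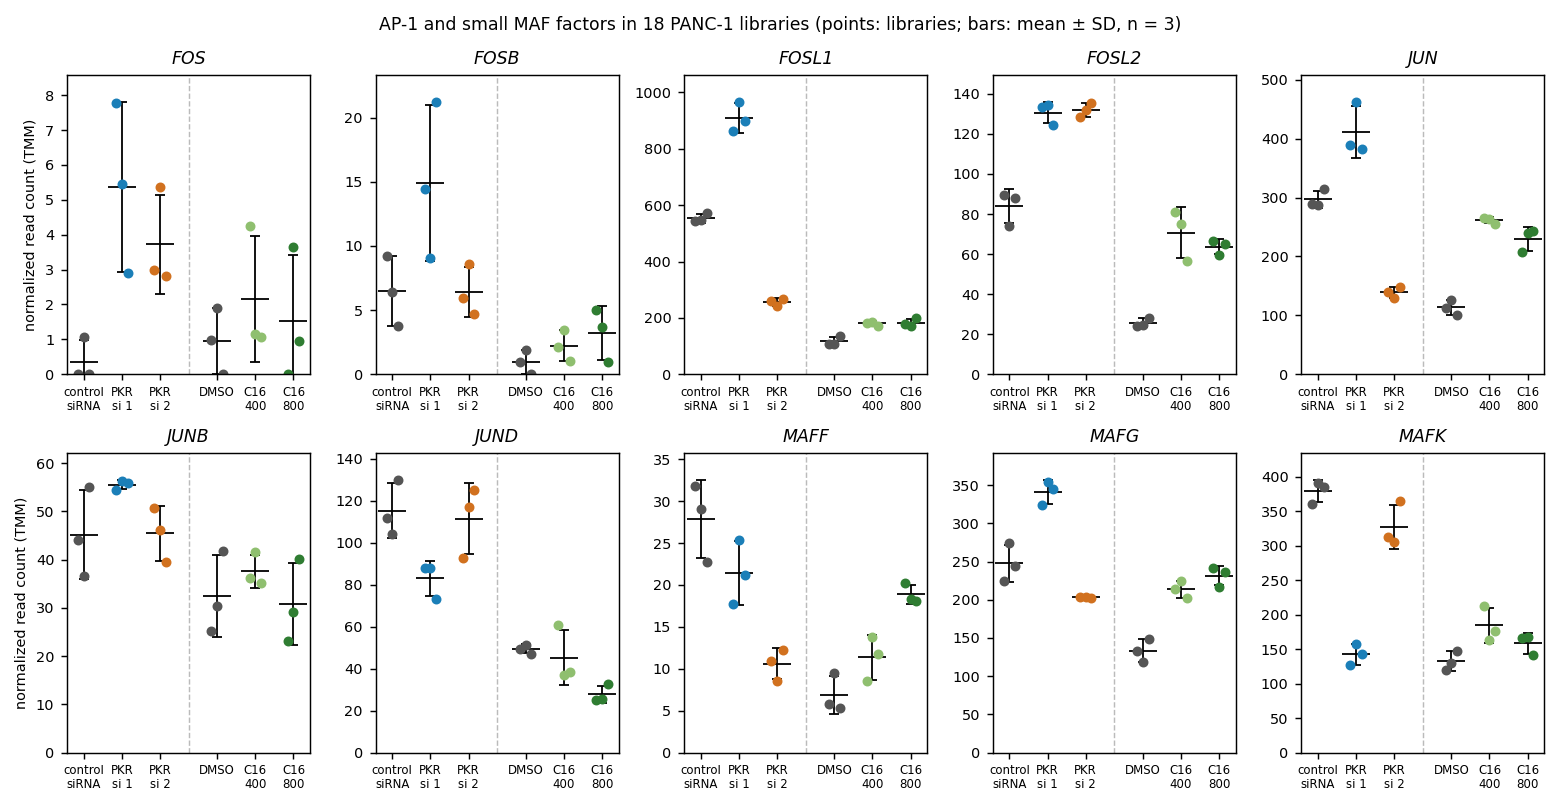
Normalized read count (y axis, linear, own scale per gene) of each of the 10 members in the 18 libraries, one point per library, with the mean and SD of 3 libraries and a dashed line between the siRNA table (left) and the C16 table (right), which were normalized separately; SD bars are not drawn below 0. FOSL1 and JUN are lower with PKR siRNA 2 than in any control siRNA library, FOSL2 is higher in every treated library than in its controls, and among the siRNA groups MAFK is lowest with PKR siRNA 1.

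A gene was counted as risen or fallen at a Benjamini-Hochberg adjusted p under 0.05 and a fold change over 1.5, from limma on log2 (normalized count + 1) across all genes with a mean of at least 10 in the table. Fold changes below are on that scale, which understates changes of low genes. In RNA from a whole culture, fewer cells that express a gene and less of its RNA per cell cannot be told apart. FOS and FOSB lay under this mean in both tables, which left 8 members tested. With PKR siRNA 1, 2 of the 8 rose (FOSL1, FOSL2) against 8.53% of all 10593 genes, and 1 fell (MAFK) against 12.6%. With PKR siRNA 2, 1 rose (FOSL2) against 10.8% of all genes, and 3 fell (FOSL1, JUN, MAFF) against 12.8%. Between the siRNAs, 1 member was higher with PKR siRNA 2 (MAFK) against 16.4% of all genes, and 4 were lower (FOSL1, JUN, MAFF, MAFG) against 15.3%. With 400 nM C16, 4 of the 8 rose (FOSL1, FOSL2, JUN, MAFG) against 7.08% of 9963 genes, and 0 fell against 5.45%. With 800 nM C16, 5 rose (the same 4 and MAFF) against 11.6%, and 1 fell (JUND) against 14.1%. MAFF reached the mean of 10 in the C16 table only through its 800 nM libraries (12.4 over all 9 and 9.12 over the other 6), so a rise at 800 nM was favoured by the filter. Between the doses, 0 members were higher at 800 nM against 1.13% of all genes, and 1 was lower (JUND) against 3.95%.

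The median log2 fold change of the 8 tested members was 0.39 with PKR siRNA 1, -0.25 with PKR siRNA 2, 0.64 with 400 nM C16 and 0.72 with 800 nM C16. The medians of all tested genes lay at -0.01, -0.01, 0.00 and 0.00 in the same comparisons. These values describe 8 genes and carry no test.

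**Figure D2:**
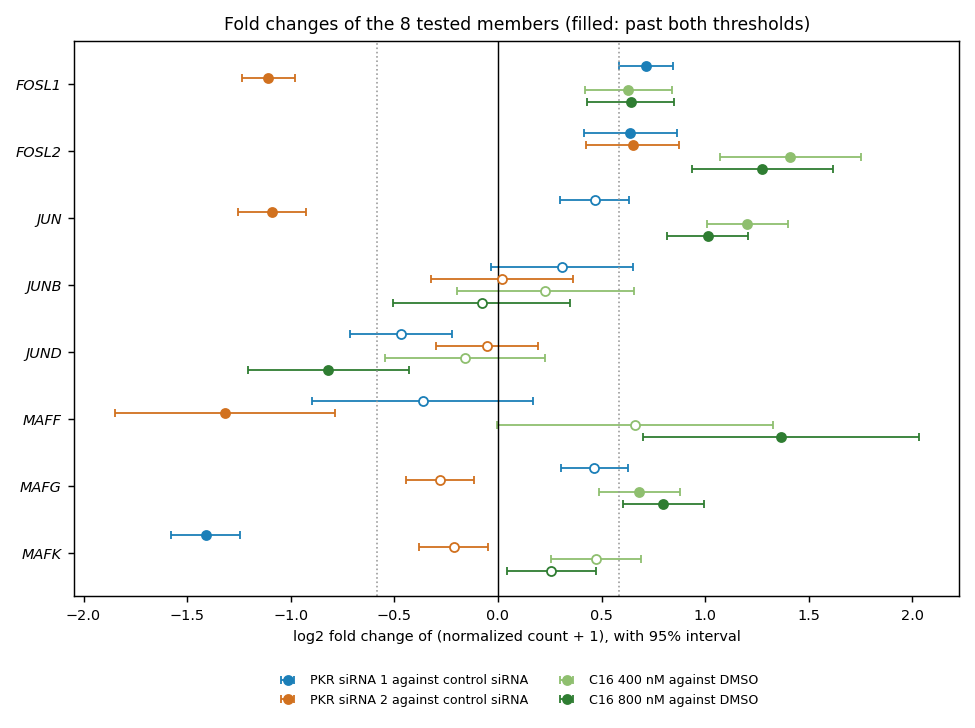
Log2 fold change of (normalized count + 1) against control siRNA or DMSO (x axis) with its 95% interval, for the 8 tested members (y axis) and the 4 treated groups, each compared over 3 libraries per group; filled points passed both thresholds and dotted lines mark a 1.5-fold change. FOSL2 lies right of 0 in all 4 comparisons, whereas FOSL1 and JUN lie left of 0 with PKR siRNA 2 and right of 0 in the other 3.

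FOSL1, a partner of JUN proteins that lacks the strong activation domain of FOS, and the main FOS family RNA of these cells, moved in opposite directions with the 2 siRNAs. Its gene lies at chr11:65892136-65900526 (hg38, minus strand, 4 exons). With control siRNA the libraries held 542, 547 and 573 normalized counts of FOSL1, those of PKR siRNA 1 864, 967 and 898, and those of PKR siRNA 2 262, 241 and 267. The 3 groups did not overlap, and the PKR siRNA 1 libraries were the highest. FOSL1 rose with PKR siRNA 1 (log2 fold change 0.71 ± 0.065 SE, limma adjusted p = 8.27e-16) and fell with PKR siRNA 2 (-1.11, adjusted p = 9.38e-26). The direct comparison of PKR siRNA 2 with PKR siRNA 1 gave -1.82 (limma adjusted p = 2.84e-39), a level 3.53 times lower.

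With DMSO the C16 libraries held 108, 109 and 134 normalized counts of FOSL1, at 400 nM 182, 187 and 172, and at 800 nM 178, 171 and 198. Every C16 library lay above every DMSO library, and the doses overlapped. FOSL1 rose 1.55-fold at 400 nM (log2 0.63, 95% interval of the fold 1.34 to 1.79, limma adjusted p = 3.29e-06) and 1.56-fold at 800 nM (log2 0.64, adjusted p = 8.56e-07). Both values stand close to the fold threshold. At 400 nM the log2 value was 0.575 without replicate 1 of DMSO and 0.580 without replicate 2, and at 800 nM 0.579 without replicate 3 of that dose, each just under the threshold of 0.585 (1.5-fold). The doses differed by a factor of 1.01 (95% interval 0.873 to 1.17).

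FOSL2, the other FRA protein, was the one member that rose in all 4 comparisons with a control. Its gene lies at chr2:28392912-28414649 (hg38, plus strand, 4 exons), just downstream of the window with the TRE shown above. FOSL2 stood at 89.3, 74.1 and 88.2 normalized counts in control siRNA libraries, at 133, 134 and 124 after PKR siRNA 1 and at 128, 132 and 135 after PKR siRNA 2. Both PKR siRNA groups lay above every control library and overlapped each other. The rise was 1.56-fold with PKR siRNA 1 (log2 0.64 ± 0.11 SE, limma adjusted p = 2.08e-06) and 1.57-fold with PKR siRNA 2 (log2 0.65, adjusted p = 1.16e-06). The siRNAs differed by a factor of 1.01 (95% interval 0.864 to 1.18). Without replicate 2 of control siRNA, the lowest of its group, the log2 values were 0.55 and 0.57, both under the fold threshold. In the C16 experiment FOSL2 stood at 24.3, 24.8 and 28.2 with DMSO, at 80.8, 75 and 56.4 at 400 nM and at 66.6, 59.7 and 64.9 at 800 nM. All C16 libraries lay at or above 56.4 and all DMSO libraries at or below 28.2. FOSL2 rose 2.66-fold at 400 nM (log2 1.41, limma adjusted p = 1.18e-09) and 2.42-fold at 800 nM (log2 1.28, adjusted p = 7.15e-09), with a ratio between doses of 0.912 (95% interval 0.720 to 1.15).

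FOS, the prototype immediate-early factor (chr14:75278778-75282234, hg38, plus strand), was close to the limit of detection. It held 0, 1.07 and 0 normalized counts in control siRNA libraries, 7.78, 5.44 and 2.89 after PKR siRNA 1 and 2.98, 5.36 and 2.82 after PKR siRNA 2. All treated libraries lay above all control libraries, on very few reads. Summed over 3 libraries, FOS had 1 read with control siRNA, 16 with PKR siRNA 1 (ratio 15.6, 95% counting interval 2.42 to 653) and 11 with PKR siRNA 2 (ratio 10.8, interval 1.58 to 467). An exact two-sided permutation test gave p = 0.1 for each siRNA, the smallest value that 3 against 3 libraries allow. Without the filter on low genes, limma put FOS past both thresholds with PKR siRNA 1 (adjusted p = 5.95e-04) and PKR siRNA 2 (adjusted p = 4.20e-03), on a fitted fold that depends on the pseudocount. In the C16 experiment FOS held 3 reads with DMSO, 6 at 400 nM and 4 at 800 nM, and the libraries overlapped, so a difference was not detectable at this depth.

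FOSB (chr19:45467995-45475179, hg38, plus strand), a second rapidly induced FOS protein, stood at 9.24, 6.45 and 3.79 normalized counts in control siRNA libraries, at 14.4, 9.07 and 21.2 after PKR siRNA 1 and at 5.97, 8.58 and 4.70 after PKR siRNA 2. The PKR siRNA 1 libraries overlapped those of control siRNA narrowly (exact two-sided permutation p = 0.2) and lay above all of PKR siRNA 2 (exact p = 0.1). In reads, 45 with PKR siRNA 1 against 19 with control siRNA gave a ratio of 2.31 (95% counting interval 1.32 to 4.18), and 19 with PKR siRNA 2 a ratio of 0.986 (interval 0.494 to 1.97). These intervals cover counting error only. With DMSO, 400 nM and 800 nM C16 there were 3, 6 and 9 FOSB reads, with overlapping libraries.

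Within the FOS family, FOSL1 made up most of the RNA per kilobase throughout. Its share of the family sum was 93.2% ± 0.609 (SD, n = 3) in control siRNA libraries, 93.0% ± 0.565 after PKR siRNA 1 and 80.0% ± 1.37 after PKR siRNA 2. FOSL2 held 6.2% ± 0.568, 5.87% ± 0.332 and 18.1% ± 0.705 in the same groups. The family sum was 339 ± 9.45 normalized counts per kb in control siRNA libraries, 558 ± 28.9 after PKR siRNA 1 and 183 ± 6.83 after PKR siRNA 2. In the C16 experiment the FOSL2 share was 8.76% ± 0.267 with DMSO, 14.4% ± 1.79 at 400 nM and 13.2% ± 0.758 at 800 nM, and the sum was 73.8 ± 8.44, 122 ± 7.76 and 121 ± 7.84 per kb.

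**Figure D3:**
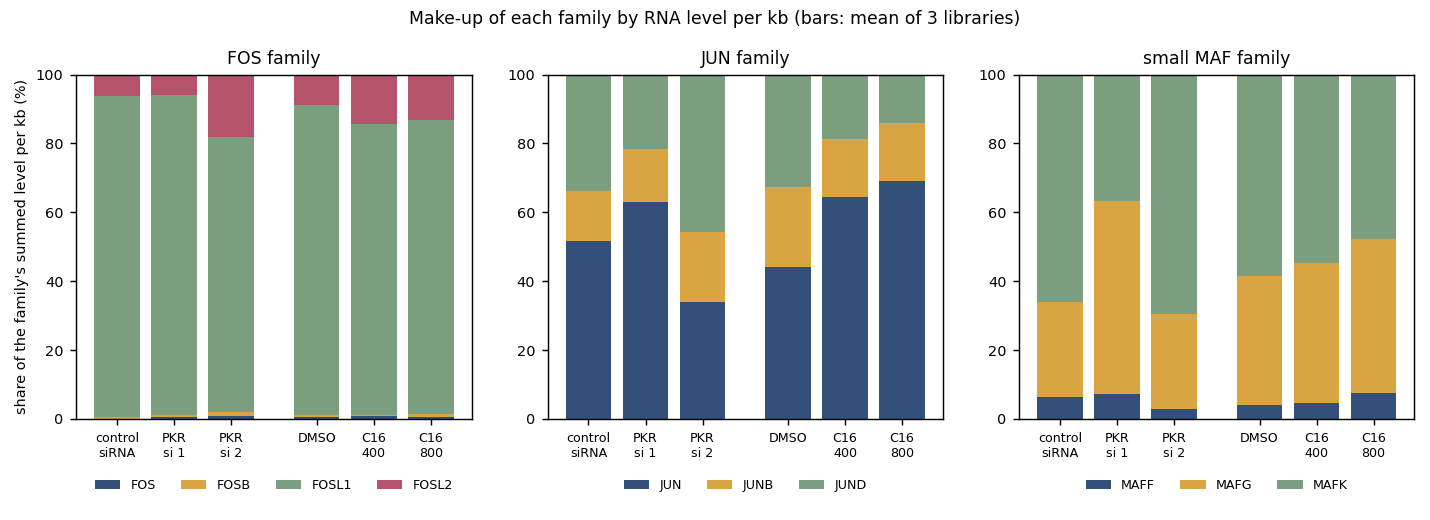
Share of each family's summed level per kb of exon (y axis, percent, from 0 to 100) held by each member in the 6 groups (x axis), as the mean of 3 libraries. FOSL1 holds 80.0% or more of the FOS family in every group, JUN holds 33.8% of the JUN family with PKR siRNA 2 and 69.2% at 800 nM C16, and MAFG holds 56.1% of the small MAF family with PKR siRNA 1.

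JUN (c-Jun, the main activating partner in AP-1) is a gene of 1 exon at chr1:58780791-58784113 (hg38, minus strand), and its promoter window carries the JUN-type CRE printed above. JUN held 289, 288 and 314 normalized counts in control siRNA libraries, 390, 463 and 383 after PKR siRNA 1 and 139, 130 and 148 after PKR siRNA 2. The groups were fully separate, with PKR siRNA 1 above control siRNA and PKR siRNA 2 below it. JUN fell to 0.470 of control siRNA with PKR siRNA 2 (log2 -1.09, limma adjusted p = 1.55e-19). With PKR siRNA 1 it was 1.38 times control siRNA (log2 0.47, 95% interval of the fold 1.23 to 1.55, adjusted p = 2.31e-06), short of the 1.5-fold threshold. PKR siRNA 2 against PKR siRNA 1 gave a log2 difference of -1.56 (limma adjusted p = 3.15e-28). In the C16 experiment JUN stood at 113, 127 and 101 with DMSO, at 266, 264 and 255 at 400 nM and at 207, 240 and 242 at 800 nM. It rose 2.30-fold at 400 nM (log2 1.20, limma adjusted p = 1.74e-15) and 2.02-fold at 800 nM (log2 1.01, adjusted p = 4.27e-13). The doses did not overlap, with 400 nM higher, but the ratio of 0.876 (95% interval 0.765 to 1.00) did not pass the threshold (adjusted p = 0.192).

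JUNB, which often restrains JUN activity, passed the thresholds in no comparison. Its single exon lies at chr19:12791496-12793311 (hg38, plus strand) and shares 14.26% of its bases with HOOK2 on the other strand in GENCODE. JUNB stood at 44.2, 36.5 and 55.0 normalized counts in control siRNA libraries, at 54.4, 56.2 and 56.0 after PKR siRNA 1 and at 50.7, 46.1 and 39.5 after PKR siRNA 2. The control libraries spanned nearly the whole range of the other groups. Its log2 differences from control siRNA were 0.31 (limma adjusted p = 0.136) and 0.02 (adjusted p = 0.940), with an interval of the fold of 0.979 to 1.57 for PKR siRNA 1 and 0.800 to 1.28 for PKR siRNA 2. JUNB held 25.3, 30.5 and 41.9 with DMSO, 36.2, 41.5 and 35.1 at 400 nM and 23.2, 29.2 and 40.1 at 800 nM, which overlapped. The fold against DMSO was 1.17 (95% interval 0.872 to 1.57) at 400 nM and 0.947 (0.704 to 1.27) at 800 nM.

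JUND, the most constitutive JUN protein and in many settings a brake on proliferation, fell at the higher C16 dose. Its single exon lies at chr19:18279694-18281656 (hg38, minus strand). JUND stood at 49.6, 51.4 and 47.2 normalized counts with DMSO, at 60.6, 36.9 and 38.3 at 400 nM and at 25.2, 25.6 and 32.4 at 800 nM. The 800 nM libraries lay below all others, and those at 400 nM spread to both sides of DMSO. At 800 nM JUND fell 1.76-fold (log2 -0.82, limma adjusted p = 3.99e-04), and at 400 nM its fold was 0.896 (95% interval 0.685 to 1.17, adjusted p = 0.585). The direct comparison of 800 nM with 400 nM gave -0.66 ± 0.19 SE (limma adjusted p = 0.0142). That difference rested on single libraries: it was -0.43 without replicate 1 of 400 nM (adjusted p = 0.196), -0.60 without replicate 1 of 800 nM (adjusted p = 0.0542) and -0.61 without its replicate 2 (adjusted p = 0.0505), and DESeq2 gave -0.69 with an adjusted p of 0.0965. With siRNAs, JUND held 112, 104 and 130 in control siRNA libraries, 87.8, 88.0 and 73.3 after PKR siRNA 1 and 92.5, 117 and 125 after PKR siRNA 2. The PKR siRNA 1 libraries lay below all others, at 0.723 of control siRNA (95% interval 0.610 to 0.857, limma adjusted p = 1.14e-03), short of the fold threshold, and PKR siRNA 2 gave 0.963 (0.812 to 1.14).

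The make-up of the JUN family moved with these levels. JUN held 51.8% ± 2.37 (SD, n = 3) of the family sum per kb in control siRNA libraries, 62.9% ± 1.82 after PKR siRNA 1 and 33.8% ± 2.19 after PKR siRNA 2, where JUND held the larger share at 45.8% ± 4.79. With DMSO, 400 nM and 800 nM C16, JUN held 44.2% ± 4.30, 64.4% ± 2.83 and 69.2% ± 3.27, and JUND 32.6% ± 1.79, 18.7% ± 4.33 and 14.1% ± 1.08. The share of JUN did not overlap between DMSO and either dose. The family sum was 173 ± 16.1 normalized counts per kb in control siRNA libraries, 197 ± 16.3 after PKR siRNA 1 and 124 ± 6.48 after PKR siRNA 2, and 77.3 ± 4.02, 123 ± 7.66 and 100.3 ± 11.9 per kb with DMSO, 400 nM and 800 nM.

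MAFK, a small MAF partner of NRF and BACH proteins, fell with PKR siRNA 1. Its gene lies at chr7:1530732-1543043 (hg38, plus strand, 3 exons). MAFK held 360, 391 and 385 normalized counts in control siRNA libraries, 127, 158 and 143 after PKR siRNA 1 and 312, 306 and 364 after PKR siRNA 2. The PKR siRNA 1 libraries lay far below all others, and the highest PKR siRNA 2 library reached into the control range. MAFK fell 2.66-fold with PKR siRNA 1 (log2 -1.41 ± 0.084 SE, limma adjusted p = 5.09e-25). With PKR siRNA 2 it was at 0.862 of control siRNA (95% interval 0.768 to 0.968, adjusted p = 0.0301), short of the fold threshold, and 2.29 times the level with PKR siRNA 1 (log2 1.20, adjusted p = 1.45e-21).

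MAFK shares 24.15% of its exon bases with TMEM184A on the opposite strand, and whether counting used strand is not given in the sources used here, so its value is uncertain to that extent. TMEM184A stood at 24.6 to 25.6 normalized counts in control siRNA libraries, at 9.98 to 11.6 after PKR siRNA 1 and at 12.9 to 17.9 after PKR siRNA 2. It fell with both siRNAs (log2 -1.13, limma adjusted p = 6.00e-04, and -0.72, adjusted p = 0.0296). The part of reads shared between the genes in the change of MAFK was not tested. In the C16 experiment MAFK stood at 120, 130 and 148 with DMSO, at 213, 164 and 177 at 400 nM and at 166, 167 and 141 at 800 nM. The 400 nM libraries lay above DMSO, at 1.39-fold (95% interval 1.19 to 1.61, limma adjusted p = 5.63e-04), and those at 800 nM overlapped it at 1.20-fold (1.03 to 1.39, adjusted p = 0.0459). Neither dose reached 1.5-fold.

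MAFG, a small MAF that pairs with the same NRF and BACH proteins, rose at both C16 doses. It lies at chr17:81918269-81927711 (hg38, minus strand, 4 exons) and overlaps ENSG00000264769 on the opposite strand by 4.263% of its exon bases and SIRT7 on the same strand by 1.998% in GENCODE. MAFG stood at 133, 118 and 148 normalized counts with DMSO, at 214, 225 and 202 at 400 nM and at 241, 217 and 237 at 800 nM. Every C16 library lay above every DMSO library. MAFG rose 1.60-fold at 400 nM (log2 0.68, limma adjusted p = 1.26e-07) and 1.74-fold at 800 nM (log2 0.80, adjusted p = 8.13e-10), and the doses differed by a factor of 1.08 (95% interval 0.946 to 1.24). With the siRNAs it held 225, 274 and 244 in control siRNA libraries, 324, 355 and 344 after PKR siRNA 1 and 203, 204 and 202 after PKR siRNA 2. PKR siRNA 1 lay above and PKR siRNA 2 below all control libraries, and neither difference reached 1.5-fold. The folds were 1.38 (95% interval 1.23 to 1.55, limma adjusted p = 1.83e-06) and 0.823 (0.735 to 0.922, adjusted p = 3.14e-03). Between the siRNAs the log2 difference was -0.75 (limma adjusted p = 9.67e-13), past both thresholds.

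MAFF, the stress-inducible small MAF, was the least expressed of its family. It lies at chr22:38201932-38216510 (hg38, plus strand, 4 exons), with its start inside the window that holds the CRE printed above, and shares 12.89% of its exon bases with PLA2G6 on the opposite strand in GENCODE. MAFF held 31.8, 29.0 and 22.8 normalized counts in control siRNA libraries, 17.8, 25.4 and 21.2 after PKR siRNA 1 and 10.9, 8.58 and 12.2 after PKR siRNA 2. The PKR siRNA 2 libraries lay below all others, and PKR siRNA 1 overlapped control siRNA. MAFF fell 2.49-fold with PKR siRNA 2 (log2 -1.32 ± 0.27 SE, limma adjusted p = 2.62e-05), and PKR siRNA 1 gave a fold of 0.778 (95% interval 0.538 to 1.13, adjusted p = 0.278). PKR siRNA 2 was below PKR siRNA 1 by a log2 difference of -0.95 (limma adjusted p = 1.62e-03). With DMSO MAFF stood at 5.83, 9.52 and 5.33, at 400 nM at 8.51, 13.8 and 11.7 and at 800 nM at 20.2, 18.3 and 18.1. The 800 nM libraries lay above all others. The fold at 800 nM was 2.58 (95% interval 1.63 to 4.09, limma adjusted p = 5.75e-04), in a gene that was tested only because of these 800 nM libraries, and without any filter on low genes the limma adjusted p was 2.82e-03. At 400 nM the fold of 1.58 (0.996 to 2.51, adjusted p = 0.140) and between doses that of 1.63 (1.03 to 2.59, adjusted p = 0.149) missed the threshold.

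Within the small MAF family, MAFK held 66.1% ± 1.38 (SD, n = 3) of the summed level per kb with control siRNA and MAFG 27.5% ± 1.34. With PKR siRNA 1 this order was turned, with MAFG at 56.1% ± 1.89 and MAFK at 36.6% ± 1.16. In PKR siRNA 2 libraries MAFK held 69.4% ± 1.77 and MAFG 27.6% ± 1.99. With DMSO, 400 nM and 800 nM C16, MAFK held 58.4% ± 1.77, 54.8% ± 4.37 and 47.8% ± 3.01, and MAFG 37.5% ± 2.72, 40.7% ± 3.14 and 44.7% ± 2.89. The family sum per kb was lower with PKR siRNA 1, at 116 ± 9.06 normalized counts against 171 ± 8.72 with control siRNA and 141 ± 10.02 with PKR siRNA 2. In the C16 experiment it was 67.6 ± 6.03 with DMSO, 100.2 ± 6.42 at 400 nM and 98.7 ± 4.60 at 800 nM.

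Among other bZIP factors that pair with FOS or JUN proteins, ATF3, a stress-induced factor, rose in all 4 comparisons with a control. Of 7 listed partners 4 were tested. With PKR siRNA 1, 2 rose and 0 fell (50% and 0% against 8.53% and 12.6% of all genes). JDP2, a repressor of AP-1, rose most, from 15.8 ± 3.51 normalized counts (SD, n = 3) to 46.9 ± 2.40 (log2 1.54, limma adjusted p = 3.62e-06). With PKR siRNA 2, 1 rose and 1 fell (25% each, against 10.8% and 12.8% of all genes). ATF3 rose from 21.1 ± 7.26 to 48.6 ± 8.93 (log2 1.21, limma adjusted p = 7.14e-07) and JDP2 fell to 9.77 ± 5.54 (log2 -0.74, adjusted p = 0.0236). The fall of JDP2 lost its call under 9 alternatives, among them edgeR (adjusted p = 0.101), DESeq2 (adjusted p = 0.208) and the fits without replicate 1 or 3 of control siRNA (-0.62 and -0.68) or replicate 1 or 2 of PKR siRNA 2 (-0.67 and -0.42). At each C16 dose 2 partners rose and 1 fell (50% and 25%). The shares of all genes were 7.08% and 5.45% at 400 nM and 11.6% and 14.1% at 800 nM. Each share of this list rests on only 4 tested genes. ATF3 rose from 15.7 ± 1.57 with DMSO to 63.6 ± 2.42 at 400 nM and 61.4 ± 2.77 at 800 nM (log2 1.95 and 1.90, limma adjusted p = 2.59e-13 and 2.92e-13). ATF7, a constitutive CRE-binding factor, fell from 39.6 ± 8.67 to 23.8 ± 7.43 and 20.4 ± 3.11 (log2 -0.73 and -0.91, limma adjusted p = 0.0153 and 1.10e-03), and at 400 nM its call was lost without replicate 3 of DMSO (-0.56), without replicate 2 of that dose (-0.53) and with DESeq2 (adjusted p = 0.0757). The 4 tested partners had a median log2 of 0.91, 0.45, 0.49 and 0.29 for PKR siRNA 1, PKR siRNA 2, 400 nM and 800 nM.

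The large MAF factors, relatives with an activation domain, were nearly silent: of 4 listed, 0 reached the tested level in the siRNA table and 1 (MAFA, passing no threshold) in the C16 table. Of 7 partners of the small MAFs and their sensor KEAP1, 5 were tested. NFE2L3, an NRF relative, rose from 125 ± 11.1 to 294 ± 24.0 normalized counts (SD, n = 3) with PKR siRNA 1 (log2 1.23, limma adjusted p = 2.06e-18). It was the 1 of 5 to pass there (20% against 21.1% of all genes in either direction). For NFE2L1 (log2 -0.50), NFE2L2 (0.50) and KEAP1 (0.30) only the fold fell short with PKR siRNA 1 (limma adjusted p = 7.14e-12, 4.94e-07 and 5.00e-03). With PKR siRNA 2 and with 400 nM C16, 0 of the 5 passed both thresholds in limma, against 23.5% and 12.5% of all genes. In edgeR and in DESeq2 0 passed as well, while 3 and 1 of the 5 had an unadjusted p under 0.05 in limma. In 2 of the 3 the adjusted p also passed and only the fold fell short: with PKR siRNA 2 NFE2L1 stood at log2 0.36 (limma adjusted p = 1.43e-07) and KEAP1 at 0.23 (adjusted p = 0.0309). The same held at 400 nM for NFE2L3, at log2 -0.54 (limma adjusted p = 1.96e-03). At 800 nM C16 BACH1, a repressor that pairs with small MAFs, rose from 21.8 ± 3.28 to 39.1 ± 9.94 (log2 0.79, limma adjusted p = 3.00e-03), and NFE2L3 fell from 128 ± 8.37 to 81.8 ± 19.3 (log2 -0.66, adjusted p = 7.09e-05). The NFE2L3 value was -0.48 without replicate 1 of 800 nM, under the fold threshold. The medians of the list in the same order of comparisons were 0.30, 0.21, -0.06 and -0.15.

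Among 18 listed kinases, SRF factors and ubiquitin ligases that act on AP-1, the siRNA table allowed a test of 17 and the C16 table of 16. With PKR siRNA 1, 17.6% of those tested passed in either direction against 21.1% of all genes, with PKR siRNA 2 11.8% against 23.5%, and at 400 and 800 nM C16 6.25% against 12.5% and 25.7%. In a list of this size such shares rest on 1 to 3 genes. After PKR siRNA 1, 1 rose and 2 fell. DET1, part of a ligase for JUN, rose from 4.45 ± 1.40 to 21.7 ± 8.14 normalized counts (SD, n = 3; log2 2.02, limma adjusted p = 1.30e-06). MAP2K4, a kinase that activates JNK, fell from 74.3 ± 18.6 to 25.4 ± 6.05 (log2 -1.51, adjusted p = 4.31e-11). ITCH was the other that fell (log2 -0.83, limma adjusted p = 3.31e-11). DET1 reached the filter only through its PKR siRNA 1 libraries, and without any filter the limma adjusted p of that rise was 4.97e-05. After PKR siRNA 2, DET1 rose to 13.8 ± 2.99 (log2 1.45, limma adjusted p = 3.54e-04). MAP2K1, a kinase that activates ERK, fell from 216 ± 20.9 to 113 ± 11.6 (log2 -0.93, adjusted p = 3.35e-13). MAP2K2, also listed, passed neither threshold (log2 -0.07, limma adjusted p = 0.574). At each C16 dose 1 gene rose and 0 fell. This was FBXW7, a ligase component for JUN, at 12.5 ± 1.59 with DMSO, 21.4 ± 4.53 at 400 nM and 22.4 ± 7.03 at 800 nM (log2 0.72 and 0.75, limma adjusted p = 0.0443 and 0.0227), and both calls were lost with DESeq2 (adjusted p = 0.174 and 0.0779). The FBXW7 call at 400 nM was also lost without any 1 of the 3 DMSO replicates or without replicate 1 or 2 of that dose (0.57 to 0.82), and the call at 800 nM without replicate 1 or 3 of DMSO or replicate 1 or 2 of that dose (0.59 to 0.71). The list medians lay between -0.09 and 0.05.

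Immediate-early genes outside the family moved in both directions with the siRNAs. The list has 14 genes, 11 of them tested with the siRNAs and 9 with C16. After PKR siRNA 1, 2 rose and 2 fell (18.2% of the tested each, against 8.53% and 12.6% of all genes; median log2 -0.17). EGR1, a zinc finger factor, rose from 11.7 ± 5.71 to 35.4 ± 2.33 normalized counts (SD, n = 3; log2 1.61, limma adjusted p = 1.71e-04), and CYR61, a secreted matrix protein, fell from 1736 ± 83.8 to 577 ± 5.35 (log2 -1.59, adjusted p = 1.55e-38). After PKR siRNA 2, 2 rose and 4 fell (18.2% and 36.4%, against 10.8% and 12.8% of all genes, median -0.49). BTG2, an antiproliferative gene, rose from 3.75 ± 0.790 to 46.3 ± 0.746 (log2 3.33, limma adjusted p = 8.30e-11), and CYR61 fell to 538 ± 34.0 (log2 -1.69, adjusted p = 8.73e-41). EGR1 and BTG2 each reached the mean of 10 only through the group in which they rose (means of 7.76 and 2.98 over the other 6 libraries of the table). Without a filter on low genes the limma adjusted p was 4.50e-08 for BTG2 with PKR siRNA 2 and 2.25e-03 for EGR1 with PKR siRNA 1. EGR1 was also counted among the 4 that fell with PKR siRNA 2 (log2 -1.53, limma adjusted p = 3.19e-04). That fall was tested only because of the high PKR siRNA 1 libraries, in a gene at 11.7 ± 5.71 with control siRNA. Its adjusted p without the filter is not given here, so the fall is a description at low counts. At 400 nM C16 4 rose and 0 fell (44.4% and 0%, against 7.08% and 5.45% of all genes, median 0.24). At 800 nM 2 rose and 0 fell (22.2% and 0%, against 11.6% and 14.1% of all genes, median -0.01). CTGF, another secreted matrix protein, led at both doses, from 126 ± 27.0 with DMSO to 304 ± 11.6 and 287 ± 30.1 (log2 1.28 and 1.20, limma adjusted p = 6.83e-16 and 4.32e-15). With PKR siRNA 2 CTGF was among those that fell (log2 -0.92, limma adjusted p = 3.12e-15). CYR61, which fell with both siRNAs, rose at 400 nM C16 (log2 0.64, limma adjusted p = 2.93e-09).

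The listed AP-1 target genes, mostly proteases, integrin and laminin genes and growth factors, largely fell with PKR siRNA 2 and rose with C16. The list has 23 genes, 14 of them tested with the siRNAs and 11 with C16. After PKR siRNA 2, 0 rose and 8 fell (57.1% against 12.8% of all genes, median log2 -1.03 against -0.01), and with PKR siRNA 1, 3 rose and 2 fell (21.4% and 14.3% against 8.53% and 12.6%, median -0.14). At 400 nM C16 8 rose and 0 fell (72.7% risen against 7.08%, median 0.90 against 0.00), and at 800 nM 7 rose and 1 fell (63.6% and 9.09% against 11.6% and 14.1%, median 0.83). The list was assembled with earlier results of these libraries known, so its counts are a description.

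MMP1, the interstitial collagenase in whose promoter the TRE was described, fell from 50.2 ± 4.13 normalized counts (SD, n = 3) in control libraries to 12.6 ± 1.78 after PKR siRNA 1 and 8.63 ± 2.91 after PKR siRNA 2 (log2 -1.91 and -2.45, limma adjusted p = 1.18e-08 and 3.42e-12). After PKR siRNA 1, IL11, a cytokine, rose from 9.63 ± 4.15 to 23.4 ± 5.98 (log2 1.25, limma adjusted p = 1.26e-03), and it reached the filter only through that group. Without any filter its limma adjusted p was 7.51e-03. LAMA3, a laminin alpha chain, rose from 9.81 ± 4.87 with DMSO to 38.5 ± 8.18 at 400 nM (log2 1.94, limma adjusted p = 2.00e-08). At 800 nM HBEGF, an EGF receptor ligand, rose from 7.72 ± 2.58 to 32.8 ± 5.30 (log2 1.98, adjusted p = 1.52e-08), and VIM, the mesenchymal filament protein, fell from 3057 ± 23.0 to 2000 ± 109 (log2 -0.61, adjusted p = 3.94e-15), to -0.57 without replicate 1 of 800 nM. PLAU (urokinase) and ITGA2 (integrin alpha 2), chosen after their values were seen, stood at log2 -1.85 and -1.43 after PKR siRNA 2, at 1.64 and 1.5 at 400 nM and at 1.54 and 1.48 at 800 nM, all past both thresholds. After PKR siRNA 1 PLAU fell (log2 -0.94, limma adjusted p = 8.13e-23) and ITGA2 was at -0.17 (adjusted p = 0.0276), short of the fold threshold. HBEGF and LAMB3 were among the 3 listed genes that rose there (log2 0.72 ± 0.23 SE and 1.12 ± 0.40 SE, limma adjusted p = 8.04e-03 and 0.0179), against 2 that fell. With PKR siRNA 2, HBEGF and LAMB3 were among the 8 that fell (log2 -1.01 and -1.60, limma adjusted p = 2.00e-04 and 6.10e-04).

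**Figure D4:**
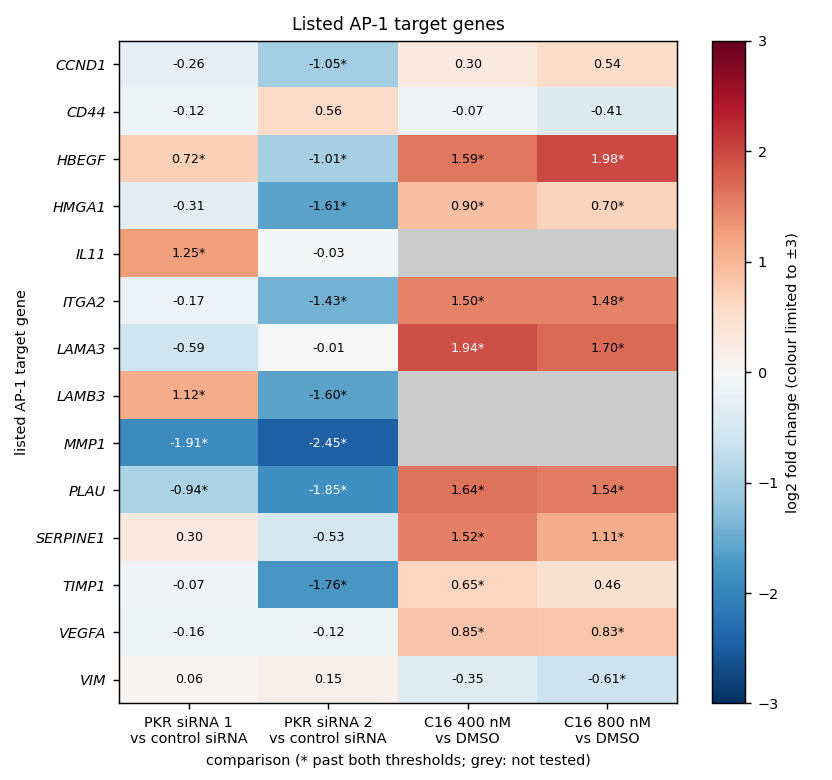
Log2 fold change (colour, and the number in each cell) of the 14 listed AP-1 target genes tested in at least 1 table (rows) in the 4 comparisons with control siRNA or DMSO (columns), 3 libraries per group; an asterisk marks genes past both thresholds and grey marks genes not tested in that table. The PKR siRNA 2 column has 8 marked falls and no marked rise, and the 400 nM C16 column 8 marked rises and no marked fall.

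Target genes of the antioxidant response element, where small MAFs sit with NRF2, were all tested in both tables, 14 in number. With PKR siRNA 1, 5 rose and 0 fell (35.7% risen against 8.53% of all genes). With PKR siRNA 2, 3 rose and 2 fell (21.4% and 14.3% against 10.8% and 12.8% of all genes), a margin of 1 gene. At each C16 dose 4 rose and 1 fell (28.6% and 7.14%, against 7.08% and 5.45% of all genes at 400 nM and 11.6% and 14.1% at 800 nM). HMOX1, heme oxygenase 1, rose most with the siRNAs, from 182 ± 22.2 normalized counts (SD, n = 3) to 472 ± 49.5 (PKR siRNA 1) and 525 ± 32.7 (PKR siRNA 2) (log2 1.37 and 1.53, limma adjusted p = 4.47e-26 and 3.53e-29). ME1, malic enzyme, fell from 72.4 ± 2.44 to 24.1 ± 1.59 with PKR siRNA 2 (log2 -1.55, limma adjusted p = 9.51e-15). At 400 nM C16 SLC7A11, the cystine transporter, rose from 43.7 ± 4.87 to 130 ± 28.5 (log2 1.54, adjusted p = 1.79e-13). At 800 nM OSGIN1 rose from 6.27 ± 0.813 to 19.7 ± 4.52 (log2 1.5, limma adjusted p = 8.03e-05). NQO1, a quinone reductase and textbook NRF2 target, fell from 162 ± 31.6 to 97.7 ± 6.91 and 73.4 ± 6.88 at 400 and 800 nM (log2 -0.71 and -1.12, limma adjusted p = 1.08e-05 and 6.13e-11), and its value at 400 nM was -0.56 without replicate 1 of DMSO, under the fold threshold. Several of these genes passed both thresholds in other comparisons too. ME1 rose with PKR siRNA 1 and at 400 nM C16 (log2 0.74 in each). With PKR siRNA 2, SLC7A11 fell (log2 -0.74) and NQO1 rose (log2 0.73). HMOX1 rose at 400 and 800 nM C16 (log2 1.22 and 0.77), SLC7A11 at 800 nM (log2 1.27) and OSGIN1 at 400 nM (log2 1.51). The list medians were 0.27, 0.30, 0.25 and 0.35 with PKR siRNA 1, PKR siRNA 2, 400 nM and 800 nM.

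Of the 5275 genes whose mean reached 50 in both tables, the nearest to each member that passed the thresholds in 3 or 4 comparisons with a control was found by Euclidean distance over the 4 log2 fold changes. For FOSL1 these were EEF1A2 (distance 0.277), an elongation factor, and SHCBP1 (0.317). EEF1A2 stood at log2 values of 0.49, -1.06, 0.77 and 0.70 in the order PKR siRNA 1, PKR siRNA 2, 400 nM and 800 nM. For FOSL2 they were CD68 (0.420), a lysosomal protein, and SMOX (0.519), spermine oxidase. For JUN they were LIF (0.352), a cytokine of the IL6 family, and ADORA2B (0.362), an adenosine receptor, and LIF had values of 0.76, -1.14, 1.03 and 0.92. The pairs of comparisons share their control libraries, so this likeness rests on 4 values that are not independent.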

How the data were processed

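RNA of PANC-1 cells was sequenced from poly(A)-selected libraries as paired 75-base reads. The authors mapped reads to hg38 with TopHat, counted them with featureCounts and normalized the counts with TCC by TMM, and they deposited the values as a signal for each gene, its read count scaled by 1 factor per library, in 1 table for siRNA and 1 for C16. The annotation and strand setting, and whether replicates were separate cultures, are not given in the sources used here, so p-values measure the spread between libraries. Within 0.01 reads, 100.0% of values came out as whole numbers of reads. In the first libraries of PKR siRNA 2 and 800 nM C16 the value of 1 read is too near 1 to tell from rounding. Unassigned columns numbered 0.

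A pseudocount of 1 was added and log2 values were fitted in limma 3.58.1 (R 4.3.3, trend, two-sided, all 9 libraries of a table) where the gene's mean reached 10, with Benjamini-Hochberg adjustment over all of them. Members also had an exact permutation test. The 10 members were named by symbol. From each gene list the text names, per comparison with a control, the passing gene with the largest rise and the largest fall, and for members passing in at least 3 of those comparisons the 2 nearest genes with a mean of at least 50. Further listed genes, and further comparisons of the named ones, were added after their values were seen. Members and lists were chosen with earlier results of these data known, and 1 gene of the AP-1 target list is not reported here. As alternatives, the pseudocount was 0.5 or 5, the filter was dropped or raised to 30, the libraries were rescaled by median of ratios, the fit was limited to the groups compared or given a replicate block, edgeR 4.0.16 and DESeq2 1.42.0 were run on recovered reads, and each library was left out. The fits were tested on simulated data. Same-numbered libraries did not deviate together (correlations -0.07 to 0.08 in the siRNA table and -0.08 to 0.06 in the C16 table), so numbers were not taken as pairs. Promoter sequences came from RefSeq (GRCh38.p14).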

Additional observations from a re-analysis of the deposited data

Results flagged for a closer look

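In 5 members the PKR siRNAs differed in a direct test, although both lowered EIF2AK2. PKR siRNA 2 against PKR siRNA 1 gave log2 differences of -1.82 for FOSL1, -1.56 for JUN, -0.95 for MAFF, -0.75 for MAFG and 1.20 for MAFK. FOSL1 passed the thresholds in opposite directions against control siRNA. JUND was the member that differed between C16 doses, by -0.66 at 800 nM against 400 nM, a difference that was lost with DESeq2 and in 3 of the fits without 1 library. All groups held 3 libraries, too few for the test of single outlying libraries.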

How the results depend on the processing

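Counts of members past the thresholds stayed within 1.5 times the reported count under every alternative except between the C16 doses, where the count of 1 became 0 with DESeq2 and 0 to 1 with single libraries left out. Over all genes, a minimum mean of 30 gave 769 genes at 400 nM (1248 as reported), 1618 at 800 nM (2561) and 313 between doses (507), where DESeq2 gave 189, and fewer genes were tested under that minimum. For single genes, 712 of the values under the other settings kept their call and 10 lost it, and with libraries left out 462 kept it, 26 lost it and 10 changed sign. The sign changes were all in values short of the thresholds, with ranges of -0.050 to 0.058 for FOSL1 and -0.28 to 0.11 for JUNB (the first between C16 doses, the second at 800 nM against DMSO), of -0.021 to 0.033 for FOSL2 between siRNAs, and of -0.12 to 0.17 for JUNB and -0.14 to 0.074 for JUND with PKR siRNA 2. The cause was not tested.

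The replicate numbers shared between groups are only numbers. With the number as a replicate block, 905 genes rose and 1332 fell with PKR siRNA 1 (904 and 1331 without it), and the block changed no member's call. The best match of a library had its own number in 3 of 9 libraries of each table. With at most 1873906 reads on genes per library, FOS, FOSB and MAFF rest on few reads.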
